A study of Mus musculus with 2 samples.

Results

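The Bcl2 family apoptosis regulators were described in 2 RNA sequencing libraries, as 10 genes chosen by name (Bcl2, Bcl2l1, Bcl2a1d, Mcl1, Bax, Bak1, Bcl2l11, Bid, Bbc3 and Pmaip1) out of the 22886 gene symbols in the deposited files. They were found by symbol, all 10 on a single row of each file. The labels describe FACS-sorted "aerobic" tumor cells from subcutaneous LLC tumors (Lewis lung carcinoma, a mouse lung tumor line) of wild type C57BL/6 mice. The mice had received an injection of vehicle, in the vehicle library, or of clodronate, in the clodronate library. Clodronate is a drug that, packed in liposomes, kills the macrophages that take it up. There was 1 library per condition, with no replicate, and the labels give no dose, time, age, number of mice or gate of the sort. A growth protocol in the labels instead names EML cells, a blood progenitor line, and conflicts with the other labels. The question the design poses is how gene expression in the sorted cells differed with clodronate. Without replicates no difference could be tested, and every difference below is one between 2 libraries.

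Cells of an animal can destroy themselves through their mitochondria, and the Bcl2 family decides whether they do. Antiapoptotic members hold the effectors Bax and Bak1 in check, BH3-only members are switched on by damage, loss of growth factor or death receptors and relieve that check, and freed effectors make pores in the outer mitochondrial membrane. Cytochrome c then leaves the mitochondrion and starts the caspases. Neutrophils are known to rely on Mcl1 for survival. Many of these proteins are also controlled by cleavage, phosphorylation or rapid degradation, which RNA levels do not show.

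Many members of the family carry a BH3 stretch, a short helix, and that of proapoptotic members binds antiapoptotic members. A search of the coding sequences of GENCODE M21 (build GRCm38) for a leucine codon, any 3 codons, a glycine codon and an aspartate codon found a match in 8 of the 10 members, against 13.2% of 21793 coding genes. Bbc3 has alanine in place of glycine, a form that counts for 23.8% of coding genes when either residue is allowed, and Bcl2a1d had no match of either kind. The stretches of 45 bases around the match are shown for the members that had a match, except Pmaip1, which had 2 matches. Capitals mark the codons of the conserved leucine and aspartate.
Bcl2 (chr1:106712569-106712613, minus strand, exon 1): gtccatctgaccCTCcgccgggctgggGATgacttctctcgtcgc
Bcl2l1 (chr2:152829691-152829735, minus strand, exon 2): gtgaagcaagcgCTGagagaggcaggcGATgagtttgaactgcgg
Mcl1 (chr3:95659424-95659468, plus strand, exon 1): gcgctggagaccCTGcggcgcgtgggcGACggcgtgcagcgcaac
Bax (chr7:45465991-45466035, minus strand, exon 3): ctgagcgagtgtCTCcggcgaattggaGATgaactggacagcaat
Bak1 (chr17:27022525-27022569, minus strand, exon 4): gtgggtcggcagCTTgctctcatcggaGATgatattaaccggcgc
Bcl2l11 (chr2:128147138-128147182, plus strand, exon 3): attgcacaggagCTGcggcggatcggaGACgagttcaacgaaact
Bid (chr6:120897283-120897327, minus strand, exon 4): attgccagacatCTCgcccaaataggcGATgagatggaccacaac
Bbc3 (chr7:16313761-16313805, plus strand, exon 3): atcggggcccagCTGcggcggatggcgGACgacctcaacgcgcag

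The authors deposited RPKM, the reads of a gene divided by its length and by the size of the library, so levels of different genes can be compared. Each ratio below is log2((clodronate RPKM + 1) / (vehicle RPKM + 1)). The added 1 RPKM shrinks differences of genes with low values. Ratios are set among the 10982 genes whose mean over both libraries reached 1 RPKM, a filter that all 10 members passed. The files give no read totals. Low RPKM values of long transcripts, multiplied by transcript length in kilobases, rose in steps taken as 1 read. A step was worth 0.0765 in the vehicle and 0.0936 in the clodronate library, which implies about 13100000 and 10700000 reads. Read numbers given for a member are estimates from these steps and its longest transcript, and no interval was computed from them.

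The sorted cells were checked against marker genes. The 10 macrophage markers summed to 22690 RPKM with vehicle and 21570 RPKM with clodronate, and none of them differed by 2-fold or more. The 8 epithelial markers summed to 16.9 and 10.97 RPKM, and Epcam, Krt19 and Cldn4 were listed at 0 in both libraries. Cdh1 had 6.14 RPKM with vehicle and 6.44 RPKM with clodronate, Krt18 had 2.97 and 3.19 RPKM, and Krt8 had 3.67 and 1.33 RPKM. Krt7, past 3-fold lower at a log2 ratio of -1.68, and Cldn7 were listed at 0 with clodronate only. The markers at high levels in both libraries were thus those of macrophages, although the labels name tumor cells. The share of tumor cells in the libraries was not tested. The markers of T, B and NK cells summed to 12.2 and 10.97 RPKM, with Cd3e and Ncr1 listed at 0 in both. Of 8 proliferation genes 7 were higher with clodronate, at a median log2 ratio of 1.14, and 5 of the 6 fibroblast markers that passed the filter were lower, with a summed level of 154 RPKM with vehicle and 75.4 RPKM with clodronate. Dendritic cell markers summed to 5.52 and 4.36 RPKM and endothelial markers to 3.34 and 8.26 RPKM. In such bulk libraries fewer cells of a type and less RNA per cell cannot be told apart.

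No member was at least 3-fold higher or lower in the clodronate library on this scale, where 2.86% of the 10982 genes passed 3-fold upward and 2.32% downward. At 2-fold, 1 of 10 members was higher (Bbc3) and 1 of 10 was lower (Bcl2), against 6.95% and 6.77% of all genes. These shares are near those of all genes. The median log2 ratio of the members was -0.17, with 4 higher and 6 lower, beside a median of 0.02 over all genes, whose middle 50% lay between -0.38 and 0.40. Over all genes 51.6% were higher and 48.4% lower. By role, 3 of 4 antiapoptotic members were lower, both effectors were higher, and 3 of 4 BH3-only members were lower. After a correction for GC content and transcript length, described with the effectors, 5 of 10 members were higher and 5 lower, and 2 of 4 BH3-only members were lower.

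**Figure D1:**
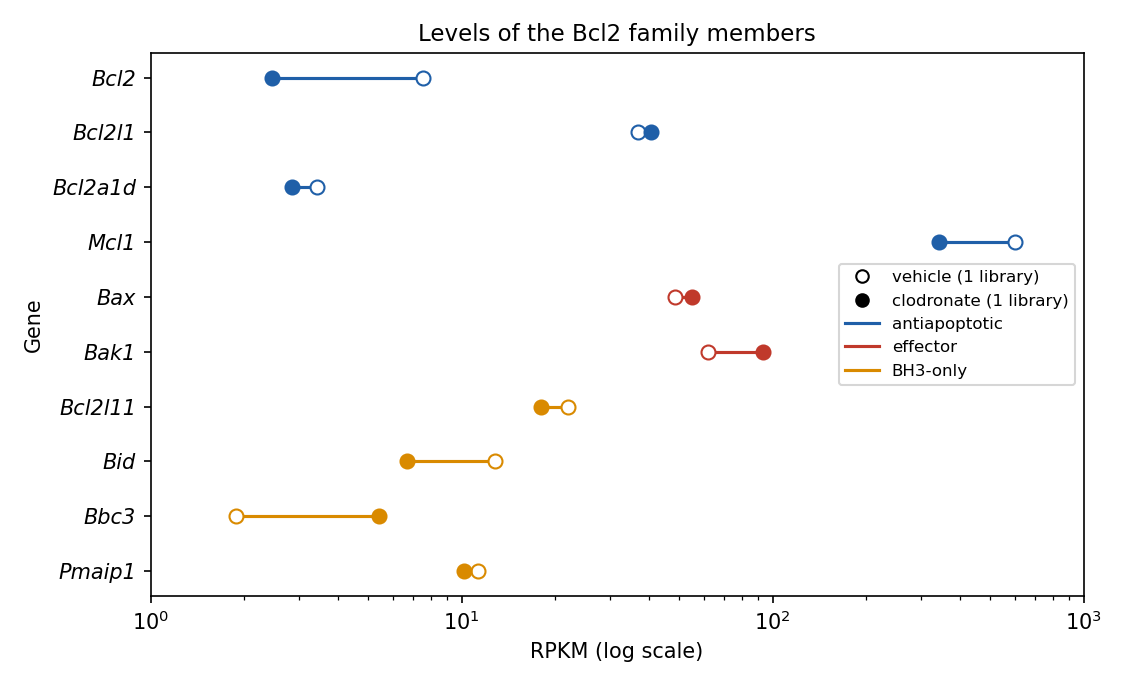
RPKM (log axis) of the 10 Bcl2 family members in the vehicle (open circles) and clodronate (filled circles) libraries, 1 library each, coloured by role. Mcl1 lies far to the right of every other member in both libraries, and Bcl2 and Bbc3 have the longest lines, in opposite directions.

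The antiapoptotic members stood at very different levels. Mcl1, which binds several BH3-only proteins and Bak1 and whose protein and RNA are both short-lived, had 599.6 RPKM with vehicle and 343.3 RPKM with clodronate. It was the highest member in both libraries, above 98.6% and 97.6% of the genes that passed the filter, and its lower value in the clodronate library corresponds to a log2 ratio of -0.80, with 10.1% of genes having a lower ratio. Among the 823 genes that averaged 100 RPKM or more, a set chosen after the values were seen, 7.17% had a lower ratio than Mcl1 and the middle 50% lay between -0.35 and 0.23. About 27000 and 13000 reads stood behind these values, so that counting error is small beside the difference, while the error between mice or preparations is not known. Mcl1 (chr3:95462642-95467101 in the files' build, mm9) alone made up 92.6% of the summed antiapoptotic RPKM in the vehicle and 88.2% in the clodronate library.

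Bcl2l1 encodes Bcl-xL and, by splicing, the proapoptotic Bcl-xS, which the values per gene do not separate. It had 36.8 RPKM with vehicle and 40.8 RPKM with clodronate, a log2 ratio of 0.14 on about 1200 and 1100 reads. Mcl1 was 16.3 times the level of Bcl2l1 in the vehicle and 8.42 times its level in the clodronate library.

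Bcl2, the founding antiapoptotic gene of the family (chr1:108434755-108610867 in mm9), had 7.502 RPKM with vehicle and 2.45 RPKM with clodronate. This is the lowest log2 ratio of the 10 members, -1.30, and 3.74% of all genes had a lower one. As a plain quotient of RPKM the vehicle value was 3.06 times the clodronate value, without the added 1 RPKM. About 710 and 190 reads lay behind the values, counted on the longest of the transcripts of this locus. Bcl2 was above 38.7% of the genes in the vehicle and above 13.9% in the clodronate library, and became the lowest of the 10 members there. Bcl2 is known as the main antiapoptotic member of many lymphocytes. In these libraries Cd3d had 0.837 RPKM with vehicle and 0.0789 RPKM with clodronate and Cd4, which some macrophages also express, 10.3 and 7.72 RPKM, whereas Cd79a, a B cell gene, had 1.10 and 1.11 RPKM and Nkg7 and Klrb1c, of NK cells, were listed at 0 in the vehicle and at 1.02 and 0.918 RPKM in the clodronate library. The part of lymphocytes in the Bcl2 values was not tested.

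Bcl2a1d belongs to a mouse cluster of near-identical copies of the A1 gene, an antiapoptotic member induced by NF-kB in myeloid cells. It had 3.43 RPKM with vehicle and 2.85 RPKM with clodronate, a log2 ratio of -0.20 on about 39 and 26 reads. These values are uncertain, because its coding sequence of 516 bases was 98.8% identical to that of Bcl2a1b and 98.6% to that of Bcl2a1a, and 79.5% of all stretches of 50 bases in its transcript also occur in another copy. The first 90 coding bases, in exon 1 of each copy, hold 6 of the 12 positions that differ among the 3 copies and show how little there is to tell their reads apart. Capitals mark those positions.
Bcl2a1a (GRCm38, chr9:88957051-88957140, plus strand): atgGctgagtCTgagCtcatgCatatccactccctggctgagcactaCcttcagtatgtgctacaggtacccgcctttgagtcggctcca
Bcl2a1b (GRCm38, chr9:89199360-89199449, plus strand): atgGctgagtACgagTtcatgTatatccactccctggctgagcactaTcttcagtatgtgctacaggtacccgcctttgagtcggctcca
Bcl2a1d (GRCm38, chr9:88731630-88731719, minus strand): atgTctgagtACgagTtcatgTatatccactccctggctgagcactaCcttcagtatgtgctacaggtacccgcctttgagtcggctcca

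Most A1 signal was listed under another copy. Bcl2a1b had 57.7 RPKM with vehicle and 26.6 RPKM with clodronate, a log2 ratio of -1.09, and Bcl2a1a had 10.04 and 6.75 RPKM, a log2 ratio of -0.51. Bcl2a1c, a short copy with a single exon, was listed at 0 with vehicle and at 0.369 RPKM with clodronate. Summed, the 4 copies had 71.2 RPKM with vehicle and 36.6 RPKM with clodronate, a log2 ratio of -0.94 in place of the -0.20 of Bcl2a1d. By these sums A1 came second among the antiapoptotic genes after Mcl1 in the vehicle library. In the clodronate library it stood a little below Bcl2l1 (36.6 against 40.8 RPKM). Of the stretches of 50 bases in the Bcl2a1b and Bcl2a1a transcripts, 57.6% and 69.0% also occur in another copy. How reads shared by copies were counted is not known, so the sums and this order are uncertain. Neutrophils are also rich in A1, and their markers summed to 43.1 and 45.1 RPKM, with S100a9, Mpo, Elane and Retnlg listed at 0 in both libraries. Of the 3 that passed the filter, S100a8 was higher with clodronate (12.7 and 23.1 RPKM), and Csf3r (26.4 and 19.3 RPKM) and Cxcr2 (4.06 and 2.69 RPKM) were lower, at a median log2 ratio of -0.43. The part of neutrophils in the A1 values was not tested.

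Both effectors were well expressed. Bak1, which sits in the outer mitochondrial membrane of healthy cells, had 61.96 RPKM with vehicle and 93.0 RPKM with clodronate, a log2 ratio of 0.58, with 83.1% of all genes lower. Bax, which moves to mitochondria from the cytosol upon activation, had 48.7 and 55.1 RPKM, a log2 ratio of 0.18, so that its value differed little. Bak1 was 1.27 times the level of Bax in the vehicle and 1.69 times in the clodronate library. The estimated reads were about 1900 and 2400 for Bak1 and about 550 and 510 for Bax. Transcripts of both genes are rich in G and C (57.1% and 59.2%), and over all genes the ratio was larger at higher GC content, with bin medians from -0.24 at the low end to 0.30 at the high end of 10 bins. After the medians of GC and length bins were subtracted, the log2 ratios were 0.43 for Bak1 and 0.16 for Bax.

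Among the BH3-only members, Bcl2l11, which encodes Bim and is induced by loss of growth factor signals, was the highest. It had 22.0 RPKM with vehicle and 18.0 RPKM with clodronate, a log2 ratio of -0.27. Bid, which caspase-8 cleaves to link death receptors to mitochondria, had 12.8 and 6.69 RPKM, a log2 ratio of -0.85 on about 370 and 160 reads, with 9.22% of genes lower. Pmaip1, which encodes Noxa and acts mostly on Mcl1 and A1, had 11.3 and 10.2 RPKM, a log2 ratio of -0.13.

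Bbc3, which encodes Puma, a target of p53 that binds every antiapoptotic member, had 1.88 RPKM with vehicle and 5.42 RPKM with clodronate. Its log2 ratio of 1.15 was the highest of the members, and 94.5% of all genes had a lower one. It was the least expressed member in the vehicle library, above 10.1% of genes, and above 29.9% of genes in the clodronate library. The values rest on about 45 and 100 reads, fewer than for any other member but Bcl2a1d. The Bbc3 transcript has the highest GC content of the 10 members, 65.2%, and its log2 ratio once corrected for GC content and length was 0.99. Bbc3 provided 3.93% of the summed BH3-only RPKM in the vehicle and 13.4% in the clodronate library, and the share of Bid was 26.7% and 16.6%.

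**Figure D2:**
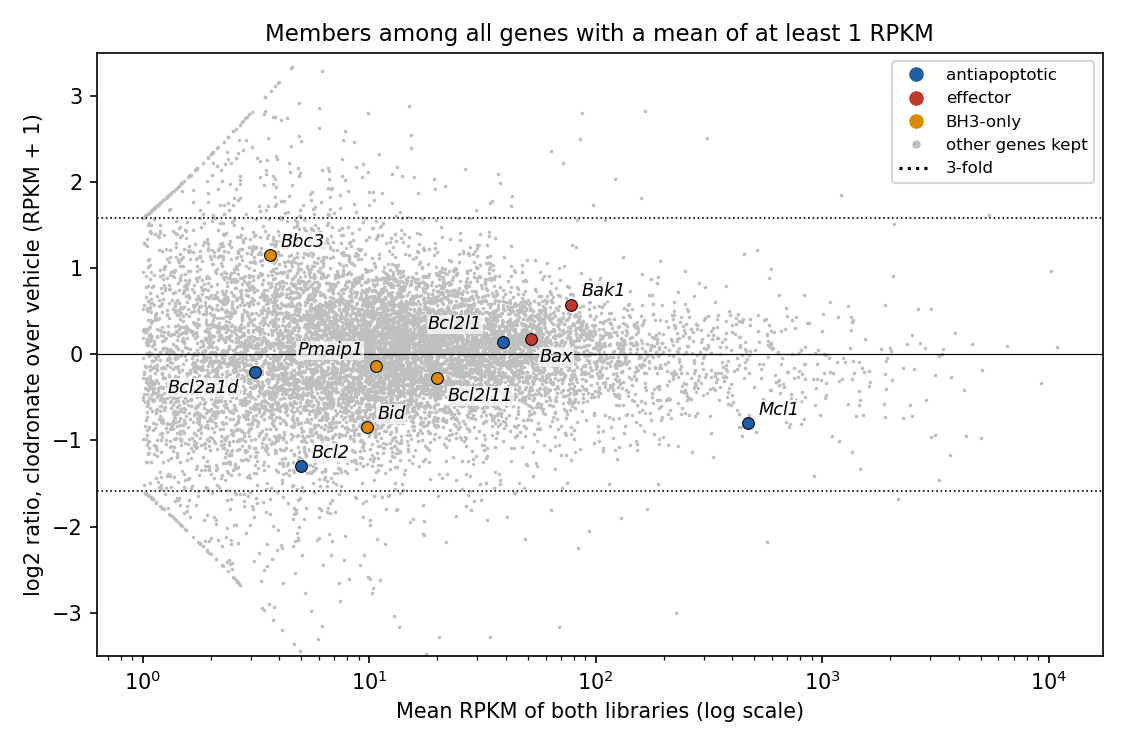
Log2 ratio of clodronate over vehicle (RPKM + 1) against mean RPKM (log axis) for the 10982 genes that passed the filter, the 10 members coloured by role and dotted lines at 3-fold. All members lie between the dotted lines, with Bbc3 highest at 1.15 and Bcl2 lowest at -1.30, and 57 other genes fall outside the axis, which ends at 3.5.

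The levels of the roles were set against each other within each library. The summed antiapoptotic members had 647.3 RPKM with vehicle and 389.3 RPKM with clodronate, 0.602 times the vehicle value. Without Mcl1 the other 3 summed to 47.7 and 46.1 RPKM, with A1 counted as Bcl2a1d alone. With the other Bcl2a1 copies added, the antiapoptotic sum was 715.0 and 423.1 RPKM, and 115.5 and 79.8 RPKM without Mcl1. The effectors summed to 110.7 and 148.1 RPKM, and the BH3-only members to 47.95 and 40.3 RPKM. The effector sum was 0.171 times the antiapoptotic sum in the vehicle and 0.381 times in the clodronate library, and 2.32 and 3.22 times when Mcl1 was left out. With the other Bcl2a1 copies added, it was 0.155 and 0.35 times the antiapoptotic sum, and 0.959 and 1.86 times without Mcl1. Bax was 6.49 times the level of Bcl2 in the vehicle and 22.5 times in the clodronate library. None of these sums and quotients was corrected for GC content and length, although both effectors have transcripts rich in G and C. The order of the 5 highest members, Mcl1, Bak1, Bax, Bcl2l1 and Bcl2l11, was the same in both libraries.

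Of the remaining relatives of the family, Bcl2l2, which is antiapoptotic, had 6.53 and 7.04 RPKM and Bcl2l10 was listed at 0 in both libraries. Of the other proapoptotic relatives, Bad, whose activity is set by phosphorylation, had 12.9 RPKM with vehicle and 17.9 RPKM with clodronate, Bmf had 1.67 RPKM in both, and Bok and Hrk were listed at 0 in both. Bik, a BH3-only protein of the endoplasmic reticulum, had 0.196 RPKM with vehicle and 5.05 RPKM with clodronate, a log2 ratio of 2.34, with an estimated 2.4 reads in the vehicle library. This is past 3-fold. All 6 more distant relatives that passed the filter (Bcl2l12, Bcl2l13, Bnip1, Bnip2, Bnip3 and Bnip3l) were lower with clodronate, at a median log2 ratio of -0.40 and none at 2-fold. Bnip3, a mitophagy receptor induced by hypoxia, had 57.0 and 40.2 RPKM (log2 ratio -0.49), and Bnip2 had 25.3 and 15.9 RPKM (log2 ratio -0.63).

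Downstream of the mitochondrion, 4 of 10 genes of the apoptosome and mitochondrial release list were higher and 6 lower, with a median log2 ratio of -0.20 and none at 2-fold. Apaf1, the scaffold of the apoptosome, had 21.1 and 13.6 RPKM, and Cycs, cytochrome c, had 26.7 and 18.8 RPKM. Diablo, which releases caspases from their inhibitors, had 4.81 and 10.4 RPKM. Its log2 ratio was 0.98 with the added 1 RPKM, and its plain quotient is past 2-fold. The 6 IAP genes, whose products include inhibitors of caspases, had a median of -0.29, with Xiap at 20.1 and 13.2 RPKM and Birc3 at 59.3 and 75.3 RPKM. Birc5, which encodes survivin, a relative of the IAPs that dividing cells express, was listed with the proliferation genes and had 2.81 RPKM with vehicle and 27.1 RPKM with clodronate (log2 ratio 2.88).

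The death receptor pathway, which reaches the family through Bid, had a median log2 ratio of -0.09 over 10 genes, with 1 gene past 2-fold upward and 2 downward. Fas, a death receptor, had 19.6 RPKM with vehicle and 6.31 RPKM with clodronate (log2 ratio -1.50), and Tradd, an adaptor, had 16.02 and 6.995 RPKM (log2 ratio -1.09). Casp8, the protease that cleaves Bid, had 59.6 and 49.2 RPKM, and Cflar, its inhibitor, 58.1 and 52.0 RPKM. Mlkl, the pore-forming protein of necroptosis, had 6.68 RPKM with vehicle and 19.2 RPKM with clodronate (log2 ratio 1.40), and Ripk3, the kinase that activates it, 15.5 and 25.9 RPKM.

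Since Bbc3, Pmaip1 and Bax are known p53 targets, the other genes of that pathway were set beside them. Of the 9 genes that passed the filter 4 were higher and 5 lower, with a median log2 ratio of -0.03 and none at 2-fold. Below the filter, Phlda3 (0.115 and 0.844 RPKM) and Perp (0 and 0.576 RPKM) were higher with clodronate and Eda2r (0.296 and 0 RPKM) was lower. Trp53 had 42.4 and 46.9 RPKM, Mdm2 58.7 and 62.2 RPKM and Cdkn1a 238.7 and 229.1 RPKM. The highest ratio among those that passed was that of Aen (3.14 and 5.81 RPKM, log2 ratio 0.72). The lowest was that of Mdm4 (26.7 and 15.6 RPKM, log2 ratio -0.73). The part of p53 in the Bbc3 values was not tested. Regulators of the Mcl1 and Bim proteins had a median log2 ratio of -0.20 over 9 genes, with 2 higher and 7 lower. Huwe1, a ubiquitin ligase of Mcl1, had 38.2 and 44.6 RPKM (log2 ratio 0.22). Usp9x, which removes that ubiquitin, had 21.7 and 17.5 RPKM, and Foxo3, a transcription factor of Bcl2l11, 14.99 and 12.97 RPKM. Fbxw7 and Trib1, also on that list, were lower, at log2 ratios of -0.44 and -0.22. What these levels mean for the Mcl1 protein was not tested.

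**Figure D3:**
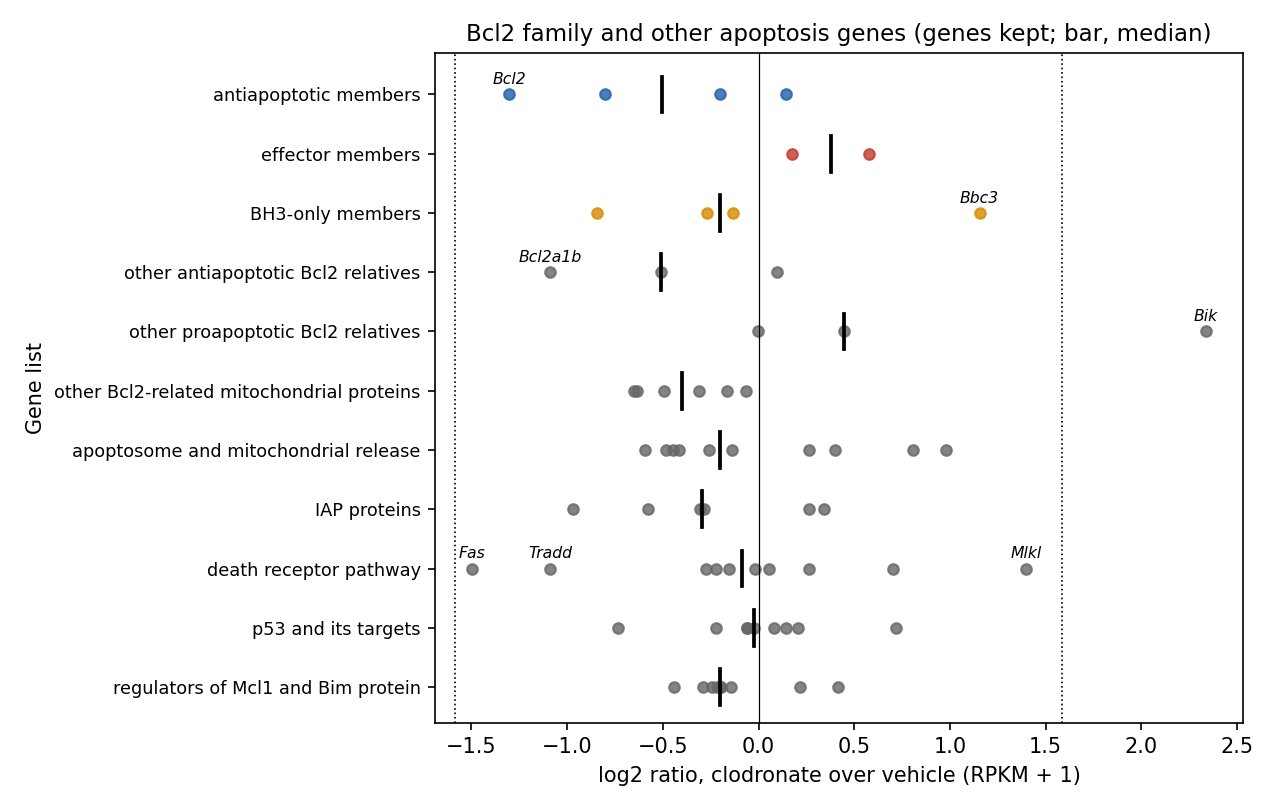
Log2 ratios of clodronate over vehicle (RPKM + 1) for the genes of 11 lists that passed the filter, a point per gene, a black bar at the median of each list, names at 2-fold or more and dotted lines at 3-fold. Most points lie within 2-fold, and Bik, at 2.34, lies past 3-fold.

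The values of the members were recomputed under other processing choices. Bcl2 (-1.58 to -1.30), Mcl1 (-0.87 to -0.75), Bid (-0.93 to -0.82), Bcl2l11 (-0.33 to -0.22), Bax (0.11 to 0.23), Bak1 (0.43 to 0.64) and Bbc3 (0.99 to 1.48) kept their side of 0 under every alternative that gave them a value. The signs of Bcl2l1 (-0.01), Pmaip1 (0.04) and Bcl2a1d (0.18) turned once GC content and transcript length were corrected for.

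**Figure D4:**
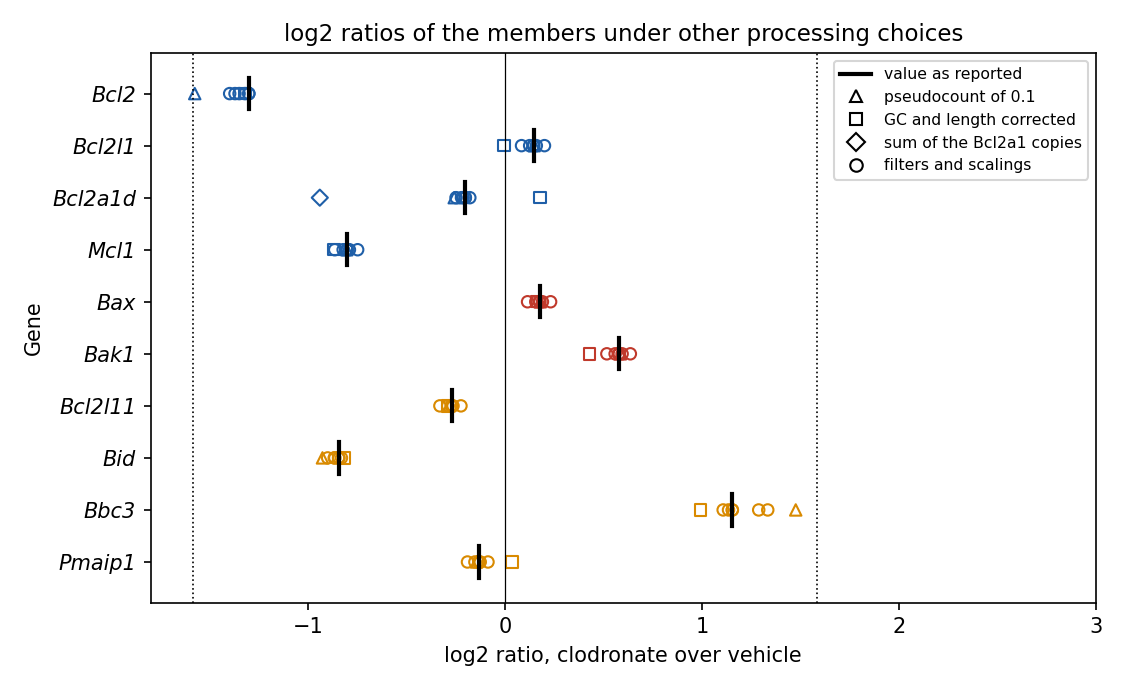
Log2 ratio of each of the 10 members as reported (black bar) and under the other processing choices (open symbols), with dotted lines at 3-fold. The symbols of Bcl2, Mcl1, Bax, Bak1, Bcl2l11, Bid and Bbc3 stay on 1 side of 0, and the widest spread is that of Bcl2a1d, from -0.94 with all Bcl2a1 copies summed to 0.18 once GC content and length were corrected for.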

How the data were processed

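Per the labels, the authors' processing notes name CASAVA 1.8.2, TopHat2 2.0.9, Bowtie 0.12.9, Cufflinks 2.2.1 and Cuffdiff on mm9, with no role or order. The authors deposited RPKM for 23170 loci in each of the 2 libraries, of polyA RNA. Symbols that had become numbers were replaced by their accession in 26 loci, and rows of the same symbol were summed, giving 22886 genes, of which 10982 had a mean of at least 1 RPKM. RPKM are not counts, so no count test was used, and with 1 library per condition no p-value was computed. A gene was called past 3-fold, or 2-fold, on the RPKM + 1 scale. The members and gene lists were chosen with earlier results of these data known. All 10 members were described, and only genes of the lists could be named besides. Adgre1 was found under its older symbol, and Ly6g under none. A few genes are not reported here, and 1 list was dropped after the values had been seen because it could not be given whole. GC content and length came from GENCODE M21 transcripts with the same RefSeq accession, found for 98.7% of the genes, and mm9 and GRCm38 coordinates were never combined. For the correction, medians of 10 bins of GC content, then of 10 bins of length, were subtracted. The unit of 1 read was the period that best matched low values of transcripts of at least 3000 bases, and the estimate is rough for short genes and for genes with several transcripts. The most frequent vehicle to clodronate ratio among 1160 low loci, 0.8162, gave a relative depth of 1.23. The steps were tested on simulated data. Python 3.11.15, numpy 2.4.6, pandas 2.3.3 and matplotlib 3.10.9 were used.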

Additional observations from a re-analysis of the deposited data

How the results depend on the processing

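Alternatives to the processing were adding 0.1 in place of 1 RPKM, keeping all genes, keeping genes that averaged 5 RPKM or more, centring the ratios, equal upper quartiles, a sum of 1000000 with and without small RNA genes, the highest row per symbol, and subtracting the medians of GC and length bins. For values without replicates, a move of more than 1.5 times was taken as a change. Of the log2 ratios of members, that of Bcl2a1d changed, to -0.94, when the Bcl2a1 copies were summed. The median of the members lay between -0.22 and 0.01, and was above 0 only once GC content and length were corrected for. The number of members past 3-fold was 0 in both directions under these alternatives, and 1 higher and 1 lower at 2-fold. All of these settings add 0.1 or 1 RPKM. As a plain quotient Bcl2, at 3.06 times higher with vehicle, is just past 3-fold. Over all genes 314 passed 3-fold upward and 255 downward. With 0.1 RPKM added the numbers were 532 and 480, among genes that averaged 5 RPKM or more 127 and 101, and at 2-fold 763 and 744. These settings by construction change how many genes can pass. Bcl2, Bcl2a1d and Bbc3 averaged less than 5 RPKM and had no value under that filter. No paired analysis was possible because there is only 1 library for each condition. The error between mice, sorts and library preparations is not known, and Bcl2a1d and Bbc3 rest on few reads.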
